A study of Mus musculus with 12 samples.

Results

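The genes described here are glycosyltransferases that build the sugar chains to which sialic acid is added, with the sialyltransferases themselves left out. They were chosen by name: protein-coding rows of the count table whose symbol starts with B3gnt, B4galt, B3galt, B4galnt, B3galnt, Galnt, Mgat, Fut, Gcnt or C1galt1. The rule found 70 rows, 69 of them with distinct symbols, of 39171 genes in the table, and 58 of the 70 had enough reads to be tested. No measured value entered the rule. The libraries came from kidneys of male mice aged up to 3 months, with 4 mice in each of 3 groups: Wild-type mice, phenotypically healthy mice homozygous for the knock-in allele GNE M743T/M743T, and mice carrying M743T that were labelled Sick. Both knock-in groups therefore carry the altered Gne allele and differ in phenotype, and the labels do not say how sickness was scored. The libraries were made from total RNA of whole kidney, so fewer cells of a type and less RNA per cell cannot be told apart in any value below.

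Gne encodes the enzyme that starts the synthesis of sialic acid. Sialic acid is the outermost sugar of many chains, and the enzymes described here work beneath it in the Golgi. Galnt enzymes attach the first N-acetylgalactosamine of mucin-type O-glycans to serine or threonine, C1galt1 and the Gcnt enzymes build the core on it, Mgat enzymes set how many antennae an N-glycan has, Fut enzymes add fucose, and the B3gnt, B4galt, B3galt, B4galnt and B3galnt enzymes lengthen chains on proteins and lipids. In the kidney these chains cover the podocyte surface, the tubule brush border and endocytic receptors such as megalin.

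Library totals ran from 10605546 to 22633684 reads assigned to genes. Levels are given as CPM, counts scaled to a common library total with trimmed mean of M values (TMM) factors, or, when genes are compared with each other, as RPKM, which is CPM per kilobase of merged exons. Gne itself, the gene that carries the allele, was at 37.7, 39.5, 37.0 and 43.0 CPM in wild-type mice, 39.9, 32.8, 36.2 and 76.9 CPM in healthy knock-in mice and 25.5, 27.3, 30.2 and 25.5 CPM in sick mice. A point change does not remove the transcript, so this level does not check the genotype. Gne was not called in sick against wild-type mice (log2 fold change -0.54 ± 0.23, edgeR adjusted p = 0.0643). Against healthy knock-in mice, of which mouse 4 was the highest, it was called lower in sick mice (-0.78 ± 0.23, edgeR adjusted p = 0.0134). In that comparison 46.4% of all genes tested were called. The scaling factors were 0.839 to 0.901 in wild-type, 0.804 to 0.933 in healthy knock-in and 1.23 to 1.39 in sick mice. Wild-type mouse 2 stood apart from its group: the chi-square per gene between it and the other 3 wild-type libraries was 174 to 212, against 12.7 to 31.7 among those 3.

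Markers of other cell types moved with the sick state, and their part in the results below was not tested. All 15 proximal tubule markers fell in sick against wild-type mice (summed levels of 27974 to 34532 CPM in wild-type mice, 28482 to 34257 CPM in healthy knock-in mice and 3552 to 6729 CPM in sick mice), as did 7 of 12 thick limb and distal tubule markers. All 11 fibroblast and pericyte markers rose (524 to 730, 506 to 1093 and 3378 to 6588 CPM in the same order), as did all 11 macrophage and myeloid markers (138 to 266, 207 to 274 and 998 to 1955 CPM), 8 of 10 T and NK cell markers (4.25 to 10.5, 10.03 to 15.3 and 15.1 to 47.5 CPM), 3 of 5 neutrophil markers, all 8 urothelium markers (59.8 to 115, 61.9 to 154 and 194 to 418 CPM) and all 6 adipose markers (61.7 to 128, 45.4 to 91.0 and 48.8 to 1672 CPM). Among the rest, 3 of 13 collecting duct markers rose and 2 fell, 4 of 10 podocyte markers rose and 1 fell, 1 of 10 endothelial markers fell, and none of 3 B cell markers passed. The skeletal muscle markers summed to 39.8 to 92.0, 329 to 510 and 2.39 to 17.7 CPM, again in that order. In sick against wild-type mice 6 of these 10 markers rose and 2, Pvalb and Myh1, fell. Pvalb, which is also on the distal tubule list, made up most of the wild-type sum (56.0 ± 22.5 CPM in wild-type and 0.987 ± 0.321 CPM in sick mice). The macrophage marker Adgre1 and the T cell marker Trac had no protein-coding row of that name in the count table. The other markers of these lists were all detected in every group, except Ucp1, which was at 0 reads in the healthy knock-in mice.

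The first comparison asks how these enzymes differ between sick knock-in and wild-type kidneys. Of the 58 members tested, 22 were higher and 18 lower in sick kidneys at an adjusted p below 0.05 (edgeR quasi-likelihood test, Benjamini-Hochberg adjustment over all genes tested), or 69.0%. Over all 15589 genes tested the share called was 50.9%, with 25.9% higher and 25.0% lower, so change was widespread in these kidneys. For 37 of the 58, every sick mouse lay to the same side of every wild-type mouse (63.8%, against 43.2% of all genes tested). Members with few reads could pass the filter through the sick group alone, which favours rises among them. Of the members called, 19 rose and 10 fell by at least 1 on the log2 scale. No share of all genes was taken at that size, so these counts show nothing particular to the members. The median log2 fold change was 0.10 over the 58 members and 0.02 over all genes tested. With library totals alone in place of TMM the median of all genes shifted up by 0.59, and the split became 31 members higher and 10 lower, or 75.6% of calls higher in place of 55.0%. Smaller falls below are therefore falls relative to the other genes.

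The direction went with the level of the transcript. Among members at a mean of 10 RPKM or more over the 12 libraries, 16 of 18 fell and 0 rose, where 48.0% of all genes at that level fell and 13.4% rose. Between 1 and 10 RPKM, 13 of 26 members rose and 2 fell, against 27.0% and 18.9% of all genes. Below 1 RPKM, 9 of 14 rose and 0 fell, against 39.7% and 8.85%. This split by level was chosen after the values were seen, and members below 1 RPKM could pass the filter on low counts through the sick group alone, which favours rises among them. The level also draws on the compared values, since mice that were not sick outnumber sick mice in the mean. That sorts falling genes upward and rising genes downward, among all genes as well. In sick mice the rising B4galnt1 was at 14.4 RPKM, though classed below 10, and the falling B3galt5 was at 4.67 RPKM, though classed above. Under library totals alone, 9 of the 18 abundant members fell and 2, Mgat4b and B4galt1, rose. Without wild-type mouse 2 the abundant members again gave 16 falls and 0 rises.

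**Figure D1:**
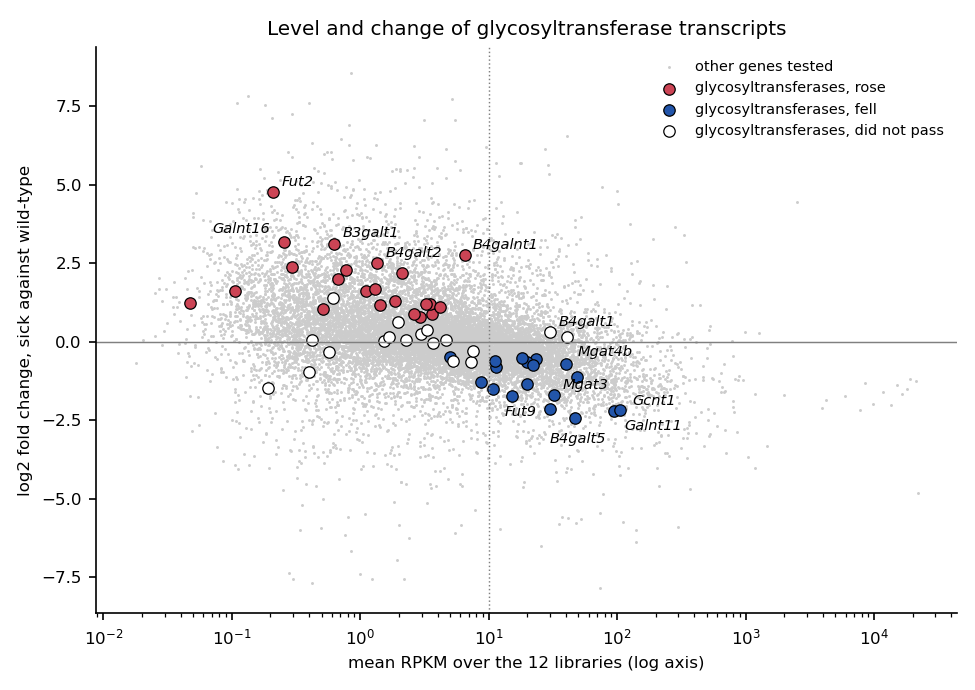
Mean level of each gene over the 12 libraries (RPKM, log axis) against its log2 fold change in sick against wild-type kidney, with other genes tested in grey and a dotted line at 10 RPKM. Of the 18 glycosyltransferases right of the line 16 fell and 0 rose, and the rises lie to its left.

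Transcripts of the leading O-glycan initiation enzymes fell, while those of some scarcer ones rose. Of 14 Galnt members tested 5 fell and 5 rose, or 71.4%, against 50.9% of all genes tested. Galnt11 (chr5:25221904-25265918 in GRCm38), which glycosylates megalin in the proximal tubule, was the most abundant. It stood at 877, 702, 927 and 1035 CPM in wild-type mice 1 to 4, 960.1, 711, 598 and 1157 CPM in healthy knock-in mice and 126, 147, 304 and 190.4 CPM in sick mice. Sick values lay below every other mouse, and Galnt11 fell by 2.21 ± 0.29 on the log2 scale (adjusted p = 5.86e-05). Galnt14 went the same way, at 110.1, 144, 104 and 129 CPM in wild-type mice 1 to 4, 104, 110.4, 97.4 and 127 CPM in healthy knock-in mice and 28.4, 35.2, 50.4 and 32.5 CPM in sick mice, and fell by 1.74 ± 0.18 on the log2 scale (adjusted p = 1.18e-05). Galnt3, known for protecting the phosphate hormone FGF23 from cleavage, was at 97.5, 87.7, 95.6 and 148 CPM in wild-type mice 1 to 4, 98.7, 101, 99.6 and 146 CPM in healthy knock-in mice and 33, 42.2, 49.2 and 45.8 CPM in sick mice. It fell by 1.33 ± 0.20 on the log2 scale (adjusted p = 0.000147), with no overlap between sick and the other mice. Galnt1, a broadly expressed family member, was at 307, 308, 311 and 365 CPM in wild-type mice 1 to 4, 317, 333, 346 and 369 CPM in healthy knock-in mice and 141, 136, 159.9 and 150.5 CPM in sick mice, and fell by 1.14 ± 0.12 on the log2 scale (adjusted p = 1.07e-05). Here the spread within each group was small beside the gap. In sick mice Galnt11 and Galnt1 still had the highest levels per length of the family (28.0 and 26.6 RPKM). Galnt18 fell by 0.64 ± 0.20 (adjusted p = 0.0156), a call that ended without sick mouse 1 (0.0502).

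The rising members of this family started low. Galnt16 was at 0.89, 0.354, 0.347 and 0.522 CPM in wild-type mice 1 to 4, 0.381, 0.63, 1.6 and 0.625 CPM in healthy knock-in mice and 4.14, 3.75, 2.46 and 8.79 CPM in sick mice, and rose by 3.18 ± 0.53 on the log2 scale (adjusted p = 0.00032). Its exons are overlapped on the opposite strand by Gm26777 and 4933406B15Rik. Galnt15 was at 5.34, 4.13, 4.85 and 8.55 CPM in wild-type mice 1 to 4, 9.79, 5.83, 4.69 and 13.9 CPM in healthy knock-in mice and 16, 45.3, 16 and 26.7 CPM in sick mice; it rose by 2.19 ± 0.42 on the log2 scale (adjusted p = 0.000866), and sick mice 2 and 4 were the highest. Galnt12 was at 1.62, 2.06, 1.39 and 1.76 CPM in wild-type mice 1 to 4, 1.84, 1.63, 2.52 and 1.36 CPM in healthy knock-in mice and 7.54, 4.81, 4.99 and 4.47 CPM in sick mice. This member rose by 1.67 ± 0.26 on the log2 scale (adjusted p = 0.000221), with every sick value above every other. Galnt6, an enzyme that can modify fibronectin, was at 1.86, 3.36, 2.25 and 1.3 CPM in wild-type mice 1 to 4, 4.32, 1.78, 4.35 and 5.28 CPM in healthy knock-in mice and 7.3, 3.98, 3.76 and 12 CPM in sick mice. It rose by 1.61 ± 0.44 on the log2 scale (adjusted p = 0.00864), and the sick and healthy knock-in values overlapped. Galnt10 rose by 0.86 ± 0.16 (adjusted p = 0.000781). Galnt2, Galnt4, Galnt7 and Galnt9 did not pass, and of these Galnt4 came nearest (log2 fold change 0.36 ± 0.15, adjusted p = 0.0586). Galnt4 did pass with library totals alone, upper-quartile factors or a filter of 1 CPM in 4 libraries (adjusted p = 0.000221, 0.0153 and 0.0498). Galnt9, with 44 reads over the wild-type and 23 over the sick libraries, had a log2 fold change of -1.49 ± 0.67 (adjusted p = 0.0805) and passed without sick mouse 4, wild-type mouse 3 or wild-type mouse 4 (0.045, 0.0498 and 0.0333). Galnt2 and Galnt4 overlap another gene on the same strand, so their counts are uncertain.

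Core building showed the same contrast. Gcnt1 (chr19:17326141-17372844), which adds the N-acetylglucosamine branch to the O-glycan core and also acts on kidney glycolipids in mice, had the highest level per length of all members in wild-type mice (140 ± 19.9 RPKM, SD, n = 4). It was at 867, 691, 933 and 726 CPM in wild-type mice 1 to 4, 854, 817, 883 and 804 CPM in healthy knock-in mice and 141, 189, 211 and 176 CPM in sick mice. All 4 sick mice lay far below the other 8, and Gcnt1 fell by 2.17 ± 0.16 on the log2 scale (adjusted p = 1.87e-06). Gcnt4, which can make the same branch, was at 1.78, 0.825, 3.21 and 1.04 CPM in wild-type mice 1 to 4, 1.91, 1.63, 1.43 and 2.61 CPM in healthy knock-in mice and 12.1, 10.1, 4.83 and 5.65 CPM in sick mice. It rose by 2.28 ± 0.43 on the log2 scale (adjusted p = 0.000783), and the highest wild-type value stayed under the lowest sick value. C1galt1c1 encodes Cosmc, the chaperone without which the core galactosyltransferase C1galt1 does not fold. It was at 35, 41.7, 32.7 and 44.1 CPM in wild-type mice 1 to 4, 32.5, 32.8, 37.4 and 36.1 CPM in healthy knock-in mice and 21.9, 22.5, 28.2 and 18.9 CPM in sick mice, and fell by 0.75 ± 0.14 on the log2 scale (adjusted p = 0.00094). C1galt1 did not pass (log2 fold change -0.62 ± 0.36, adjusted p = 0.168). Its values were 37.6, 10.8, 41.3 and 46.6 CPM in wild-type mice 1 to 4, 44.9, 39.8, 43.9 and 35.3 CPM in healthy knock-in mice and 27.9, 23.5, 12.1 and 24.7 CPM in sick mice. The low value of wild-type mouse 2 sets this outcome, since without that mouse the log2 fold change was -0.93 with adjusted p = 0.00438.

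Because members of a family moved in opposite directions, the stretches before their start sites were read for the pairs Gcnt1 and Gcnt4, and B3galt5 and B3galt1, in each of which the first fell and the second rose. The 250 bases before an annotated RefSeq start (GRCm38.p6) are shown 5′ to 3′ on the gene's own strand, with each CG in capitals, at chr19:17372845-17373094 (minus strand) for Gcnt1, chr13:96924094-96924343 (plus) for Gcnt4, chr16:96235551-96235800 (plus) for B3galt5 and chr2:67565439-67565688 (plus) for B3galt1.
Gcnt1: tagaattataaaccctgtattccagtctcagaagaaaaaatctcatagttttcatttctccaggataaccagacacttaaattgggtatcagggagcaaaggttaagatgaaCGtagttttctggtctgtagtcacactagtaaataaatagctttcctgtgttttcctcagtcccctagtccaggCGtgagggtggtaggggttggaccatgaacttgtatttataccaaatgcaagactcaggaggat
Gcnt4: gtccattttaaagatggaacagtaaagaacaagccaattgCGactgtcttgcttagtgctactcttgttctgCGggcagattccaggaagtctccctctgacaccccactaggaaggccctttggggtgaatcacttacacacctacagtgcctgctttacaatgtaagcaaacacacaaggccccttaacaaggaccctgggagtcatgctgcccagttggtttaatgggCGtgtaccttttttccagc
B3galt5: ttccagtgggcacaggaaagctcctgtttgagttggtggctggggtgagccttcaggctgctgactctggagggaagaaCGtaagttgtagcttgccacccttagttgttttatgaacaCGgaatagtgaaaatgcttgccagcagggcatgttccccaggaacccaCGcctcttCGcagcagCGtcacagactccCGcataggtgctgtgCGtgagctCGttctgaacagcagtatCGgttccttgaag
B3galt1: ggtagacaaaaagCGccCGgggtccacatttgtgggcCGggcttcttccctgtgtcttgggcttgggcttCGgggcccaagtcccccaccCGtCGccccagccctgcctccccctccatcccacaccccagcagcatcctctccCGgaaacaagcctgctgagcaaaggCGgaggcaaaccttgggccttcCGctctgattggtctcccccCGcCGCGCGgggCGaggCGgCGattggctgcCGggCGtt
These windows hold 2, 3, 9 and 18 CG. Each is the outermost start of its gene whose window holds no annotated exon base. Other annotated starts gave other counts, of 10 and 2 CG for Gcnt1, 15 for Gcnt4, 6 and 20 for B3galt5 and 3 for B3galt1, so the order of the genes depends on the start taken. A window was found for 52 of the 69 symbols, giving 75 windows. Their median was 13 CG, against 6 over all 32851 RefSeq windows, and CG occurred in 98.7% and 92.1% of windows. Members that rose had a median of 14, members that fell 10.5 and members that were tested and not called 18.5, so both called groups lay below the rest. Searched on both strands, TGACTCA was in 2 of the 75 windows (2.67%, against 4.46% of all windows), GTTAAT in 1 (1.33% against 6.43%) and GGGCGG in 36 (48.0% against 32.7%). A match here describes letters and is no evidence of binding.

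Of 7 N-glycan branching enzymes tested, 3 fell and 2 rose, or 71.4%, against 50.9% of all genes tested. The 2 rises include Mgat4c, which could be tested only through its reads in sick mice, so the filter favours its rise. Mgat3 (chr15:80173721-80215519), which adds the bisecting N-acetylglucosamine, fell most. It was at 227, 133, 239 and 187 CPM in wild-type mice 1 to 4, 226, 191, 187 and 169 CPM in healthy knock-in mice and 55.1, 60.4, 61.1 and 63.9 CPM in sick mice, and fell by 1.71 ± 0.17 on the log2 scale (adjusted p = 1.06e-05). Values in sick mice were close to each other and below every other mouse. Mgat2, which opens the arm that Mgat1 leaves free, was at 115, 118, 129.8 and 120.0 CPM in wild-type mice 1 to 4, 124, 107, 109 and 141 CPM in healthy knock-in mice and 69.8, 72.3, 84.1 and 70.2 CPM in sick mice, and fell by 0.70 ± 0.12 on the log2 scale (adjusted p = 0.000382). Mgat1, which starts all complex N-glycans, fell by 0.55 ± 0.15 (adjusted p = 0.00709). With library totals alone the Mgat2 call ended and Mgat1 stood at 0.03. Among the enzymes that start an extra antenna, Mgat4a was at 18.6, 13, 14.1 and 16.8 CPM in wild-type mice 1 to 4, 15.6, 21.2, 24.3 and 13.9 CPM in healthy knock-in mice and 50.3, 39.2, 26.9 and 37.1 CPM in sick mice. It rose by 1.30 ± 0.22 on the log2 scale (adjusted p = 0.000389), with no overlap. Mgat4b, its close relative, was at 122, 144, 95.6 and 82.1 CPM in wild-type mice 1 to 4, 120.1, 94.9, 84 and 97.8 CPM in healthy knock-in mice and 117, 126, 132 and 117 CPM in sick mice. That is a log2 fold change of 0.14 ± 0.17 (adjusted p = 0.509), and Mgat4b was the member with the highest level per length in sick mice (45.2 ± 2.83 RPKM). Mgat4c was scarce, at 0.324, 0.354, 0.173 and 0.522 CPM in wild-type mice 1 to 4, 0.318, 0.315, 0.515 and 0.114 CPM in healthy knock-in mice and 0.649, 0.797, 1.38 and 0.565 CPM in sick mice. It rose by 1.22 ± 0.46 on the log2 scale (adjusted p = 0.0401), but the adjusted p was 0.0639 with DESeq2 and was above 0.05 when any of 7 single mice was left out. Mgat5, which starts the antenna that carries long lactosamine chains, did not pass (log2 fold change 0.01 ± 0.49, adjusted p = 0.983).

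All 6 fucosyltransferases tested passed, 2 lower and 4 higher, where 50.9% of all genes tested were called. Fut2 could be tested only through its reads in sick mice, and Fut1 and Fut7 had too few reads to be tested. The filter therefore favours a full share here. Fut9 (chr4:25609332-25800244) makes the Lewis x epitope of mouse kidney. It was at 608, 305, 711 and 597 CPM in wild-type mice 1 to 4, 695, 566, 467 and 541 CPM in healthy knock-in mice and 109, 123, 141 and 125 CPM in sick mice, and fell by 2.16 ± 0.24 on the log2 scale (adjusted p = 1.56e-05). Wild-type mouse 2 was the lowest of the 8 mice that were not sick, and still above every sick mouse. Fut8, which puts fucose on the N-glycan core, fell by 0.82 ± 0.14 (adjusted p = 0.000363). Fut4 can also make Lewis x and is expressed by myeloid cells. It was at 1.38, 1.1, 1.39 and 1.44 CPM in wild-type mice 1 to 4, 1.78, 1.31, 1.66 and 1.53 CPM in healthy knock-in mice and 7.14, 4.68, 4.14 and 5.34 CPM in sick mice, and rose by 2.004 ± 0.24 on the log2 scale (adjusted p = 2.5e-05). Fut9 and Fut4 thus moved in opposite directions, and in sick mice Fut9 still had the higher level (9.001 RPKM). Fut2 (chr7:45648591-45666394), the secretor enzyme of epithelia that makes H antigen, was at 0, 0.0589, 0.347 and 0.0652 CPM in wild-type mice 1 to 4, 0.254, 0.157, 0.172 and 0.284 CPM in healthy knock-in mice and 1.62, 6.74, 1.15 and 2.77 CPM in sick mice. It rose by 4.75 ± 0.76 on the log2 scale (adjusted p = 0.000241), from 6 reads over the wild-type libraries to 312 over the sick ones. Sick mouse 2 was the highest for Fut2, and without it the log2 fold change was 4.001, while without wild-type mouse 3 it was 5.92. Fut11 was at 11.2, 8.55, 12.3 and 9.92 CPM in wild-type mice 1 to 4, 9.59, 12.2, 12.6 and 6.87 CPM in healthy knock-in mice and 36.6, 22.3, 19.2 and 17.8 CPM in sick mice, and rose by 1.19 ± 0.25 on the log2 scale (adjusted p = 0.0018). Fut10 was at 2.18, 1.77, 2.25 and 1.44 CPM in wild-type mice 1 to 4, 1.72, 2.1, 2.58 and 1.25 CPM in healthy knock-in mice and 5.15, 3.68, 3.15 and 3.65 CPM in sick mice, and rose by 1.04 ± 0.27 on the log2 scale (adjusted p = 0.00661). None of these 4 rising members overlapped between sick and wild-type mice, where 43.2% of all genes tested did not overlap.

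**Figure D2:**
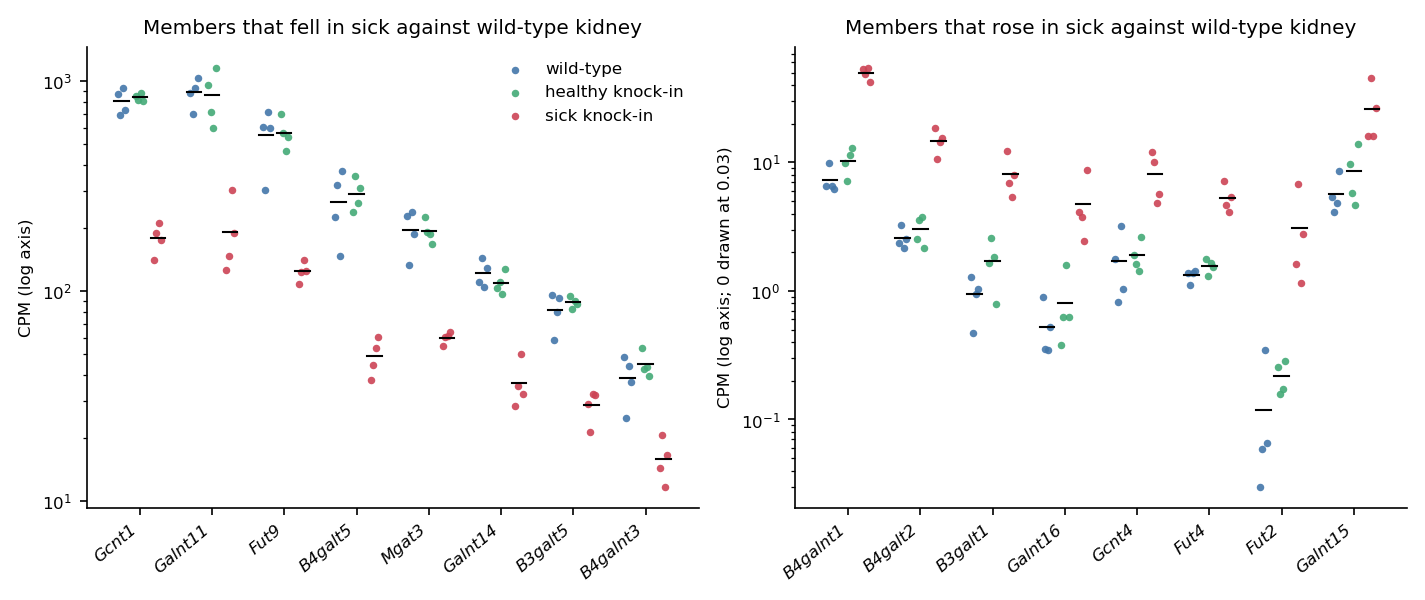
CPM in each mouse (points, log axis; a value of 0 is drawn at 0.03) with the group mean (bar) for 8 members that fell and 8 that rose. Sick mice lie below all other mice for the 8 on the left. On the right they lie above all other mice, and for Fut2 wild-type mice run from 0 to 0.347 CPM and sick mice from 1.15 to 6.74 CPM.

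Enzymes that lengthen or cap chains were called higher in 6 and lower in 3 of 16, or 56.2%, near the 50.9% of all genes. B3galt5, which makes type I chains and a kidney globo-series lipid, was at 95.7, 58.7, 80.0 and 92.8 CPM in wild-type mice 1 to 4, 95.3, 81.9, 89.7 and 87.2 CPM in healthy knock-in mice and 29.2, 21.4, 32.3 and 32.2 CPM in sick mice. It fell by 1.51 ± 0.17 on the log2 scale (adjusted p = 2.04e-05), with sick mice below all others. B4galnt3, which makes the LacdiNAc unit, was at 48.6, 25.1, 44.1 and 37.1 CPM in wild-type mice 1 to 4, 53.5, 42.7, 43.7 and 39.6 CPM in healthy knock-in mice and 14.4, 20.8, 11.7 and 16.6 CPM in sick mice, and fell by 1.28 ± 0.22 on the log2 scale (adjusted p = 0.000372). Gcnt2, the enzyme that branches lactosamine chains, fell by 0.62 ± 0.14 (adjusted p = 0.00263), a call that ended with library totals alone. B3galt1, which also makes type I chains, was at 1.29, 0.472, 0.953 and 1.04 CPM in wild-type mice 1 to 4, 1.65, 2.57, 1.83 and 0.795 CPM in healthy knock-in mice and 12.2, 6.87, 5.37 and 7.97 CPM in sick mice. It rose by 3.12 ± 0.41 on the log2 scale (adjusted p = 5.23e-05), and every sick value was above every other. B4galt2, a lactosamine galactosyltransferase, was at 2.35, 3.24, 2.17 and 2.54 CPM in wild-type mice 1 to 4, 2.54, 3.57, 3.78 and 2.16 CPM in healthy knock-in mice and 18.5, 10.7, 14.4 and 15.6 CPM in sick mice. It rose by 2.51 ± 0.25 on the log2 scale (adjusted p = 8.02e-06), though Ccdc24 overlaps it on the same strand. B3galt2 was at 1.54, 0.589, 1.39 and 0.587 CPM in wild-type mice 1 to 4, 2.35, 2.2, 1.43 and 1.87 CPM in healthy knock-in mice and 1.7, 2.22, 2.53 and 14.5 CPM in sick mice. Only sick mouse 4 was far from the others, and B3galt2 rose by 2.38 ± 0.67 on the log2 scale (adjusted p = 0.0102). Without that mouse the value was 1.09 (adjusted p = 0.0348). The adipose markers summed to 1672 CPM in the same mouse and to 48.8 to 410 CPM in the other sick mice, and any link was not tested.

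B3gnt7, an enzyme of keratan sulfate chains, was at 6.15, 4.01, 3.55 and 3.85 CPM in wild-type mice 1 to 4, 3.24, 4.2, 3.66 and 3.07 CPM in healthy knock-in mice and 9.37, 10.7, 10.3 and 8.84 CPM in sick mice, and rose by 1.16 ± 0.20 on the log2 scale (adjusted p = 0.000464). B3gnt9 was at 5.91, 7.96, 4.85 and 4.24 CPM in wild-type mice 1 to 4, 5.08, 6.3, 5.67 and 6.36 CPM in healthy knock-in mice and 17.4, 7.93, 9.9 and 17.2 CPM in sick mice, and rose by 1.19 ± 0.28 on the log2 scale (adjusted p = 0.00325). Its sick mice split into a higher pair, mice 1 and 4, and a lower pair. B4galt4 rose by 0.78 ± 0.27 (adjusted p = 0.0279), a call that ended without sick mouse 1, sick mouse 4, wild-type mouse 1 or wild-type mouse 4 (0.0564, 0.0613, 0.0838 and 0.0789). B4galt1, the main galactosyltransferase of lactosamine, was at 80.3, 77.2, 84.1 and 178 CPM in wild-type mice 1 to 4, 113, 102, 112 and 275 CPM in healthy knock-in mice and 129.9, 137, 118 and 133 CPM in sick mice. Mouse 4 was the highest of its group in both groups that were not sick, the groups overlapped, and B4galt1 did not pass (log2 fold change 0.30 ± 0.33, adjusted p = 0.477). The other members that did not pass were B3gnt2, B3gnt3, B3gnt8, B3gntl1, B4galnt4 and B4galt3, with log2 fold changes from -0.98 ± 0.65 for B4galnt4 to 1.38 ± 0.83 for B3gnt3. B3gnt3 passed without wild-type mouse 4 (2.67, adjusted p = 0.0266).

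Glycolipid synthesis also held enzymes of 1 step that moved apart, with 3 of 6 members higher and 1 lower. The share called was 66.7%, against 50.9% of all genes tested. It includes B3gnt5, which could be tested only through its reads in sick mice, so the filter favours its rise. B4galt5 (chr2:167298444-167349183) and B4galt6 both make lactosylceramide, the precursor of gangliosides and globosides. B4galt5 was at 225, 319, 147 and 375 CPM in wild-type mice 1 to 4, 237, 355, 262 and 309 CPM in healthy knock-in mice and 37.9, 44.5, 53.9 and 60.3 CPM in sick mice. It fell by 2.44 ± 0.27 on the log2 scale (adjusted p = 1.74e-05), the lowest log2 fold change of the 58 members, and sick mice lay below all others. B4galt6 was at 18.2, 16.5, 16.8 and 14.9 CPM in wild-type mice 1 to 4, 16.5, 18, 18 and 29.7 CPM in healthy knock-in mice and 38.4, 38.7, 29.1 and 35.3 CPM in sick mice. This second enzyme rose by 1.09 ± 0.19 on the log2 scale (adjusted p = 0.000372), with every sick value above those of wild-type mice, while healthy mouse 4 lay just above sick mouse 3 and below the other sick mice. B4galnt1 (chr10:127165225-127172330) adds the N-acetylgalactosamine that opens the complex gangliosides, on a lipid that already carries sialic acid. It was at 6.55, 9.96, 6.5 and 6.2 CPM in wild-type mice 1 to 4, 9.91, 7.19, 11.4 and 12.9 CPM in healthy knock-in mice and 53.5, 48.7, 54.3 and 42.1 CPM in sick mice. Sick values lay well above the rest, and B4galnt1 rose by 2.76 ± 0.21 on the log2 scale (adjusted p = 2.09e-06). Slc26a10 overlaps 715 of its 3454 exon bases on the opposite strand. B3gnt5, which starts the lacto-series, was at 0.243, 0.177, 0.52 and 0.326 CPM in wild-type mice 1 to 4, 0.381, 0.367, 0.286 and 0.454 CPM in healthy knock-in mice and 1.14, 0.93, 0.998 and 0.771 CPM in sick mice, and rose by 1.61 ± 0.35 on the log2 scale (adjusted p = 0.00196). B3galt4, the next enzyme after B4galnt1, did not pass (log2 fold change 0.61 ± 0.31, adjusted p = 0.116), though it did without wild-type mouse 2 (0.88, adjusted p = 0.0301) or sick mouse 4 (0.79, adjusted p = 0.0467). B3galnt1, globoside synthase and the leading member of its small family, was at 24.3, 14.4, 20.1 and 10.3 CPM in wild-type mice 1 to 4, 17.6, 19.6, 11.3 and 13.7 CPM in healthy knock-in mice and 9.73, 9.89, 13.8 and 11.1 CPM in sick mice. It did not pass (log2 fold change -0.63 ± 0.26, adjusted p = 0.0565), though it did with DESeq2 (adjusted p = 0.0319) and without sick mouse 3, wild-type mouse 2 or wild-type mouse 4 (0.0398, 0.0446 and 0.0118).

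Of 5 enzymes that act on proteoglycan linkers and other O-glycans, 2 fell and 1 rose, all by under 1 on the log2 scale. The share called was 60%, against 50.9% of all genes tested. B3gnt1, named B4gat1 in the annotation, primes the laminin-binding glycan of dystroglycan and led the B3gnt family per length. It was at 52.6, 59.2, 44.3 and 38.4 CPM in wild-type mice 1 to 4, 42.3, 40.7, 45.1 and 42.2 CPM in healthy knock-in mice and 32, 34.7, 39.8 and 28.7 CPM in sick mice, and fell by 0.53 ± 0.15 (adjusted p = 0.00917). Sick and wild-type values overlapped, and a gene on the same strand overlaps B3gnt1. B3galnt2, another dystroglycan enzyme, fell by 0.47 ± 0.18 (adjusted p = 0.0413). That call ended without any of sick mice 1, 2 and 3, wild-type mouse 4 or healthy mouse 2 (0.0817, 0.0671, 0.0942, 0.13 and 0.0576). B3galtl, named B3glct in the annotation, adds glucose to O-fucose on thrombospondin repeats and rose by 0.88 ± 0.22 (adjusted p = 0.00447). B4galt7 and B3galt6, which build the proteoglycan linker, did not pass, with log2 fold changes of 0.06 ± 0.15 and 0.16 ± 0.18.

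**Figure D3:**
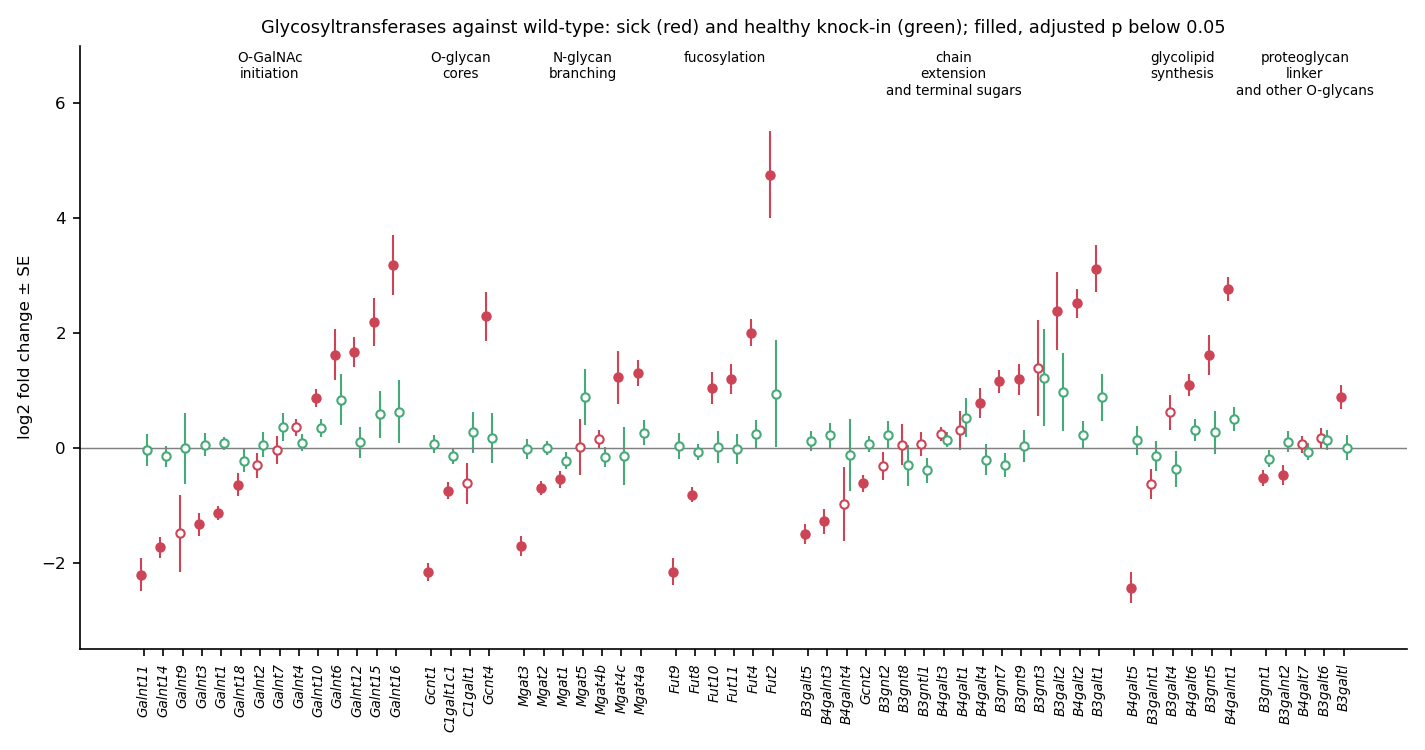
Log2 fold change (± SE) against wild-type of the 58 members tested, by role, in sick (red) and healthy knock-in (green) kidneys, with filled points at an adjusted p below 0.05. Red points run from -2.44 for B4galt5 to 4.75 for Fut2, and no green point is filled.

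The make-up of the families changed accordingly. Shares here are of the summed RPKM of a family and do not depend on library scaling. Galnt11 held 46.6% ± 3.7 (SD, n = 4) of the Galnt sum in wild-type, 44.9% in healthy and 24.0% ± 6.3 in sick mice. Gcnt1 went from 91.4% ± 1.6 to 75.4% ± 3.5, while Gcnt2 went from 8.31% to 19.8%. Among fucosyltransferases Fut9 held 69.7% ± 4.7 in wild-type and 36.2% ± 6.2 in sick mice, and Fut11 4.50% and 22.1%. B4galt5 led its family in wild-type mice with 61.1% ± 7.2 and held 18.0% ± 3.3 in sick mice, where B4galt1 led with 48.4% (24.8% in wild-type). B4galnt3 made up 78.3% ± 9.993 of its family in wild-type and 22.2% ± 5.4 in sick mice, and B4galnt1 17.1% and 75.6%. B3galt5 went from 69.5% to 31.3%, and Mgat3 from 26.5% to 11.8% while Mgat4b went from 25.5% to 41.2%. For each of these members the wild-type and sick ranges did not overlap. Summed levels per length, unlike the shares, do depend on the scaling. With TMM factors they fell with the leading members. The Galnt sum was 276 ± 30.5 RPKM in wild-type and 113 ± 16.1 RPKM in sick mice, and the Gcnt sum 153 ± 19.3 and 41.1 ± 4.93 RPKM. The Fut sum was 56.9 ± 15.3 and 25.1 ± 2.04 RPKM, and the Mgat sum 159 ± 12.4 and 109.6 ± 5.7 RPKM. The B3gnt sums overlapped (28.3 ± 5.03 and 26.8 ± 0.918 RPKM), and the B4galnt sum was higher in sick mice (12.9 ± 2.07 and 19.0 ± 1.28 RPKM). The TMM factors were higher in sick than in wild-type mice, which lowers the sick sums relative to library totals. Smaller differences, such as that of the Mgat sum, are therefore relative to the other genes.

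**Figure D4:**
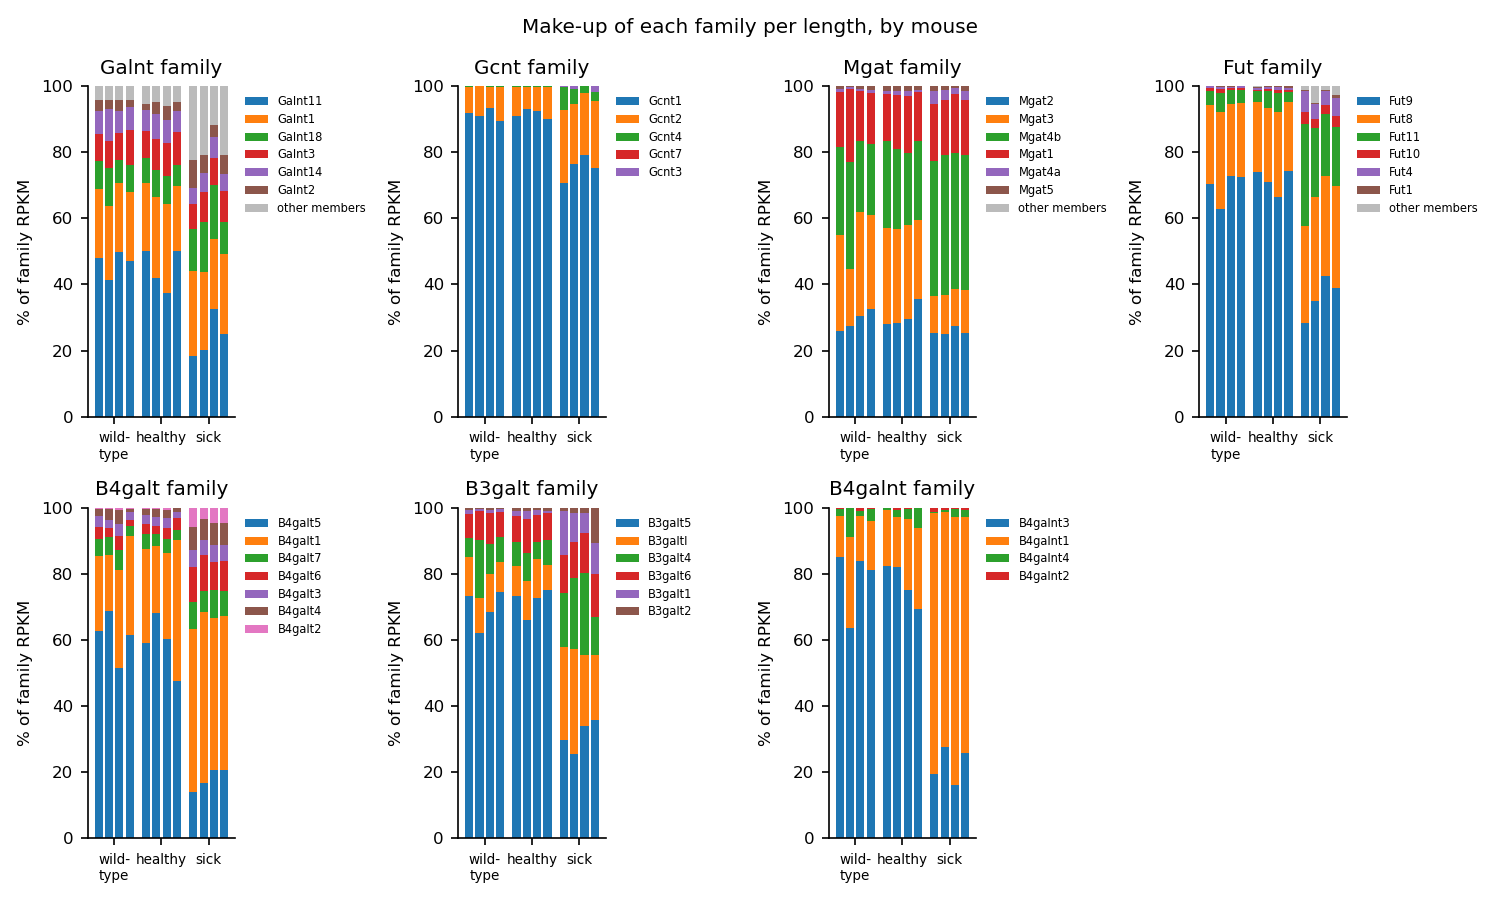
Share of each member in the summed RPKM of its family (percent), 1 bar per mouse. In the 4 sick mice Galnt11, Gcnt1, Fut9, B4galt5, B3galt5 and B4galnt3 hold smaller shares than in any of the other 8 mice.

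The second comparison asks whether the allele without the sick state goes with a change. Between healthy knock-in and wild-type mice 0 of the 58 members were called in either direction (edgeR), where 0.314% of all genes tested were, 48 higher and 1 lower. DESeq2 also called 0. At an unadjusted p below 0.05 there was 1 member, B4galnt1 (log2 fold change 0.50 ± 0.20), against 4.49% of all genes tested, and the lowest adjusted p among members was 0.912. Of the 10 skeletal muscle markers 9 rose in the same comparison, and their part in these values was not tested. The B4galnt1 values overlapped, at 6.20 to 9.96 CPM in wild-type and 7.19 to 12.9 CPM in healthy mice. Mgat5 was the single member whose groups did not overlap (1.72% of members, against 3.97% of all genes). It was at 15.5, 2.12, 15.5 and 15.9 CPM in wild-type and 26.8, 23.2, 21.4 and 19.0 CPM in healthy mice. Its log2 fold change was 0.89 ± 0.49 (adjusted p = 0.912), and 0.53 without wild-type mouse 2. The log2 fold changes of the 58 members ran from -0.39 to 1.22, the highest being B3gnt3, with overlapping groups. In the simulated data for this comparison the test found 51 of 100 genes with a true log2 change of 1 and 87 of 100 with a change of 2, so smaller differences could have been missed.

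The third comparison sets sick against healthy mice of the knock-in allele. It shares the sick mice with the first, so values are given side by side. Here 21 members were higher and 15 lower, 62.1% of the 58, where 46.4% of all genes tested were called (24.5% higher and 21.9% lower). Calls in both comparisons were made for 20 members that rose and 15 that fell. The share of all genes called in both was not taken, and the shared sick mice favour such calls. These counts are therefore descriptions. Against healthy mice the log2 fold change was -2.23 ± 0.16 for Gcnt1, -2.16 ± 0.29 for Galnt11, -2.19 ± 0.24 for Fut9 and -2.57 ± 0.27 for B4galt5. For rising members it was 2.26 ± 0.20 for B4galnt1, 2.29 ± 0.24 for B4galt2, 2.24 ± 0.38 for B3galt1, 2.55 ± 0.49 for Galnt16 and 3.81 ± 0.67 for Fut2. Several were nearer 0 than against wild-type, because the healthy mice had higher means for these genes, although that difference itself was not called. Against healthy mice B3galt2, Galnt6, B3gnt1, Galnt18 and Mgat1 missed the threshold (adjusted p = 0.081, 0.149, 0.0776, 0.0976 and 0.0844). Each of them passed under some alternative. Mgat1 did with the 8 libraries of the comparison alone (adjusted p = 0.0158) and without wild-type mouse 2 (0.0132). B3gnt1 did with the 8 libraries alone (0.0361) and without sick mouse 3, wild-type mouse 2 or wild-type mouse 4 (0.0365, 0.0334 and 0.0489). Galnt18 passed without sick mouse 3 (0.00622), B3galt2 without sick mouse 1 (0.0404) and with library totals alone (0.0145), and Galnt6 with library totals alone (0.0117). Whether these members differ between the comparisons was not tested. B3galt4 passed against healthy mice (0.98 ± 0.31, adjusted p = 0.0205), and the call ended without healthy mouse 3 or sick mouse 3. The C1galt1 value was -0.89 ± 0.36 (adjusted p = 0.0591). It passed with DESeq2 (adjusted p = 0.0291) and with the 8 libraries of the comparison alone (0.00972). Without wild-type mouse 2 it passed through the shared spread (adjusted p = 0.00354).

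Genes around these enzymes were read from lists of their pathways. Over the 10 lists 93 of 171 genes tested were called in sick against wild-type mice, or 54.4%, near the 50.9% of all genes, so the counts below are descriptions. By list the share ran from 35.7% for N-glycan precursor assembly and transfer to 80.0% for galectins and selectins. Of 13 nucleotide sugar transporters 8 fell and 0 rose in sick against wild-type mice. Slc35d1 (67.4 ± 11.2 CPM in wild-type and 32.3 ± 2.91 CPM in sick mice, adjusted p = 0.000172), Slc35d2 (41.9 ± 7.71 CPM in wild-type and 18.8 ± 4.05 CPM in sick mice, adjusted p = 0.000265) and Slc35a3 (179 ± 72.8 CPM in wild-type and 76.3 ± 11.9 CPM in sick mice, adjusted p = 0.00149) led, the last of which carries UDP-N-acetylglucosamine into the Golgi. Among 26 genes listed around nucleotide sugar synthesis, not all of them enzymes of synthesis itself, 11 fell and 3 rose. Pgm3, of the hexosamine pathway, fell (48.3 ± 2.78 CPM in wild-type and 27.8 ± 3.88 CPM in sick mice, adjusted p = 0.000127), as did Pgm2 (120.4 ± 9.19 CPM in wild-type and 55.6 ± 10.1 CPM in sick mice, adjusted p = 3.17e-05) and Amdhd2 (99.8 ± 34.7 CPM in wild-type and 31 ± 5.62 CPM in sick mice, adjusted p = 5.27e-05). Gfpt2, the inducible first enzyme of the hexosamine pathway, rose (2.42 ± 0.632 CPM in wild-type and 8.89 ± 3.58 CPM in sick mice, adjusted p = 0.000562). Of 28 genes that assemble and transfer the N-glycan precursor 10 fell and 0 rose, among them Stt3b, a catalytic subunit of oligosaccharyltransferase (243 ± 26.7 CPM in wild-type and 141 ± 10.1 CPM in sick mice, adjusted p = 0.000127), and Rpn1 (269.8 ± 45.1 CPM in wild-type and 169 ± 28.5 CPM in sick mice, adjusted p = 0.00237). N-glycan trimming had 4 higher and 2 lower of 12. The mannosidase Man1a fell (229 ± 20.8 CPM in wild-type and 101 ± 4.14 CPM in sick mice, adjusted p = 1.73e-05) and its relative Man1c1 rose (7.86 ± 0.597 CPM in wild-type and 33 ± 11.6 CPM in sick mice, adjusted p = 1.26e-05).

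In glycolipid synthesis outside the members 1 of 6 rose and 2 fell. A4galt, which makes a globo-series lipid, rose (15.6 ± 3.82 CPM in wild-type and 30.9 ± 4.18 CPM in sick mice, adjusted p = 0.00106), and Ugt8a, galactosylceramide synthase, fell (199 ± 113 CPM in wild-type and 35.7 ± 19.5 CPM in sick mice, adjusted p = 0.000515). Glycolipid breakdown had 4 higher and 5 lower of 12. Of 26 genes of glycosaminoglycan synthesis 6 rose and 4 fell, with Chst15 higher (27.4 ± 3.91 CPM in wild-type and 64.8 ± 6.93 CPM in sick mice, adjusted p = 4.67e-05) and Chst11 lower (121 ± 22.2 CPM in wild-type and 33.2 ± 21.2 CPM in sick mice, adjusted p = 0.000493). Other O-glycosylation had 7 higher and 5 lower of 20, led by the xylosyltransferase Gxylt2 (0.524 ± 0.19 CPM in wild-type and 10.6 ± 5.2 CPM in sick mice, adjusted p = 5.03e-06) and the O-mannosyltransferase Pomt1, which fell (39.2 ± 2.99 CPM in wild-type and 22.2 ± 2.16 CPM in sick mice, adjusted p = 9.46e-05). Among proteins that carry O-glycans 10 of 18 rose and 3 fell. The mucins Muc4 (0.551 ± 0.186 CPM in wild-type and 29.9 ± 13.2 CPM in sick mice, adjusted p = 2.9e-06) and Muc1 (8.63 ± 2.31 CPM in wild-type and 77.1 ± 21.8 CPM in sick mice, adjusted p = 3.74e-06) rose, and megalin, Lrp2, fell (3121 ± 1122 CPM in wild-type and 458 ± 84.1 CPM in sick mice, adjusted p = 9.83e-06). Of 10 galectins and selectins, which bind such chains, 7 rose and 1 fell, led by Lgals3 (24.9 ± 8.53 CPM in wild-type and 109 ± 26.6 CPM in sick mice, adjusted p = 5.14e-05). Over the 10 lists 42 calls were higher and 51 lower, and with library totals alone 92 and 19, so the balance of the lists depends on the scaling. Between healthy knock-in and wild-type mice 0 genes of any of these lists were called by edgeR.

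The 12 rows left untested were B3gnt4, B3gnt6, B4galnt2, Fut1, Fut7, Galnt5, Galnt13, both rows named Galntl6, Gcnt3, Gcnt7 and Mgat5b. Fut7, which makes selectin ligands on leukocytes, had 20 reads over all 12 libraries, and B3gnt6, which makes an alternative O-glycan core, had 19. Gcnt3 reached 57 reads in 1 library and 123 in all, and the other untested rows between 3 and 72 in all.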

How the data were processed

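RNA was taken from 12 whole kidneys with the miRvana Ambion kit, treated with DNase and made into Trueseq libraries, per the labels' protocols. The submitters' processing notes name Trim Galore 0.3.7, TopHat2 2.0.11, Cufflinks, DESeq2 1.12.4 and GRCm38. They give no counting program, annotation release or use of strand. Reads of a gene and of one overlapping it on either strand therefore cannot be told apart, and not every overlap is named above. The authors deposited raw counts per gene, and their normalized values and fold changes were not used here. The samples within a group are separate mice as far as the labels say.

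Counts of all genes kept by filterByExpr (15589 of 39171) were fitted in edgeR 4.0.16 (R 4.3.3) with TMM factors, a quasi-likelihood model with 1 mean for each of the 3 groups and all 12 libraries; p-values were adjusted by Benjamini-Hochberg over all genes tested and called below 0.05. The standard error is the log2 fold change divided by the root of F. Lengths are merged exons of GENCODE M21 (GRCm38). Members and lists were chosen with earlier results of these data known. Members called with a log2 fold change of at least 1, or highest of their family per length in any group, are given by mouse; up to 3 genes per direction come from each list. Promoter windows are from RefSeq. The fit was tested on simulated counts: for the sick and wild-type groups (14658 genes) it found 49 of 100 genes with a true log2 change of 1 and 90 of 100 with a change of 2, and called 9 that were unchanged. Alternatives were other scalings, filters, a replicate block, 8 libraries alone, DESeq2 1.42.0, longest transcripts and leaving out each mouse. Replicate numbers were not taken as pairs. Per-mouse counting error was not added to the spread between mice.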

Additional observations from a re-analysis of the deposited data

Results flagged for a closer look

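In each group of 4 mice, the highest or lowest CPM of a member was set against the other 3, over 58 members and 3 groups, or 174 groups; chance alone gives about 1 in 20 such groups, or 8.7, and 12 were found. In wild-type mouse 4, B4galt1 stood at 177.7 CPM (77.2 to 84.1 in the other 3), Galnt1 at 365.4 CPM (307 to 311), Galnt3 at 148.0 CPM (87.7 to 97.5) and B3gnt3 at 2.61 CPM (0.173 to 0.485). In healthy knock-in mouse 4, B4galt1 stood at 274.8 CPM (102 to 113), Galnt3 at 146.5 CPM (98.7 to 101 in the others) and B4galt6 at 29.7 CPM (16.5 to 18.0). B4galt1 and Galnt3 were therefore far from the others in mouse 4 of both groups that were not sick. Wild-type mouse 2 had Mgat5 at 2.12 CPM (15.5 to 15.9) and B4galnt1 at 9.96 CPM (6.20 to 6.55). Among sick mice, B3galt2 was at 14.5 CPM in mouse 4 (1.70 to 2.53), Galnt12 at 7.54 CPM in mouse 1 (4.47 to 4.99) and B4galt7 at 11.8 CPM in mouse 2 (14.5 to 14.9).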

How the results depend on the processing

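Library totals alone moved most results. Lower members went from 18 to 10 against wild-type, abundant members from 16 lower and 0 higher to 9 and 2, and calls in the pathway lists from 42 higher and 51 lower to 92 and 19 against wild-type and from 41 and 48 to 90 and 14 against healthy mice. The log2 fold change turned positive, without passing, for B3galnt2 (0.13), B3gnt1 (0.0596) and Mgat1 (0.035) against wild-type and for B3galnt2 (0.0105) against healthy mice; the calls of C1galt1c1, Fut8, Galnt18, Gcnt2 and Mgat2 ended against wild-type. Upper-quartile factors moved the median of all genes by 0.13 and gave 24 members higher and 17 lower. With lengths of the longest transcript, Galnt11 held 53.3% of its family in wild-type and 30.5% in sick mice, Gcnt1 89.3% in wild-type mice, and Fut9 56.9% and 28.2%; the cause is the length used. The split by level was set after seeing the data. Leaving out 1 mouse at a time gave 20 to 22 members higher and 16 to 20 lower against wild-type, 19 to 21 and 15 to 21 against healthy mice, 0 between healthy and wild-type mice, and 15 to 16 abundant members lower. Without wild-type mouse 2 the counts were 22 and 20 against wild-type and 21 and 21 against healthy mice. With a replicate block the members were 21 higher and 18 lower against wild-type, 21 and 15 against healthy mice and 0 between healthy and wild-type mice; Mgat4c lost its call (adjusted p = 0.0773) and no other call of a member ended. The labels do not say that a number marks a shared litter or day, and deviations of same-numbered libraries of different groups correlated at -0.26 to 0.243. Of 12 libraries 6 correlated best with their own number, which is a hint from the data and not from the design. With 4 mice a group, the simulation recovered changes of 1 on the log2 scale less often than changes of 2. Smaller changes were not simulated, and members with few reads have wide errors.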

Other observations

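Mgat5 and C1galt1 were low in the same libraries: wild-type mouse 2 had 2.12 and 10.8 CPM, and sick mouse 3 had 4.76 and 12.1 CPM, where the other 3 mice of each group had 15.5 to 15.9 and 37.6 to 46.6 CPM (wild-type) and 13.5 to 16.7 and 23.5 to 27.9 CPM (sick). Both genes were singled out after their values were seen. Over all genes tested, deviations of wild-type mouse 2 and sick mouse 3 from their group means correlated at 0.497. This was the highest value of any pair from different groups, so these libraries deviated together in other genes as well. Gcnt3, an O-glycan branching enzyme of mucin-secreting epithelia that had too few reads to be tested, was at 0.365, 1.49, 0.0767 and 2.93 CPM in sick mice and at 0.0809 to 0.130 CPM in wild-type mice.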
